A study of Bos taurus with 25 samples.

Results

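The mammary gland of dairy cows injected with folic acid and vitamin B12 together was compared with that of cows injected with saline. The comparison rested on 6 of the 25 arrays of the series, chosen by their labels: 3 arrays labelled B9_B12 (cows 31, 32 and 38) and 3 labelled Ctl (cows 42, 43 and 51), each from 1 biopsy of 1 cow. All animals were multiparous Holstein cows in lactation, kept in 1 herd and biopsied 64 ± 3 days after calving. The B9_B12 cows received 320 mg of folic acid (pteroylmonoglutamic acid, B9) and 10 mg of cyanocobalamin (B12) into the muscle each week, starting before calving, and the Ctl cows received 5 mL of 0.9% NaCl in the same way. Mammary arrays of cows given folic acid alone (B9, 3 arrays) or B12 alone (B12, 4 arrays) shared the fit and are described where they place a value. The 12 liver arrays are not described here. A biopsy holds secretory epithelium, myoepithelium, stroma, fat and immune cells, so fewer cells of a type and less RNA per cell cannot be told apart. The labels do not place the cows in the milk yield blocks by which the animals were allotted to treatments.

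Folate carries one-carbon units for the synthesis of purines and thymidylate and for the remethylation of homocysteine to methionine. Vitamin B12 is the cofactor of methionine synthase, where the folate and methionine cycles meet, and of methylmalonyl-CoA mutase, through which propionate enters the citric acid cycle. In the lactating gland methionine serves both milk protein synthesis and methylation reactions. IDO1 and SECTM1 belong to immune signalling: IDO1 (indoleamine 2,3-dioxygenase 1) catalyses the first step of tryptophan breakdown along the kynurenine pathway and is induced by interferon-gamma, and SECTM1 is a secreted and transmembrane protein that binds CD7 on T and natural killer cells.

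All levels below are log2 intensities of 1 probe after background correction and normalization, so differences are log2 differences, B9_B12 minus Ctl, and levels of different probes are not comparable. A gene is represented by its brightest probe unless another is named. The 6 arrays had a median signal 3.19 to 4.11 times the background, 70.5% to 74.97% of probes were well above background, no spot was saturated, and pairs of these arrays correlated at 0.987 to 0.993 over all probes. The tissue carried its defining genes: all 15 measured luminal epithelial markers, among them EPCAM, CDH1, KRT8 and ELF5, were well above background on all 6 arrays, as were the milk protein genes CSN1S1, CSN1S2, CSN3 and LALBA. Each slide that held a Ctl array held 1 B9_B12 array too (cow 31 with 42, cow 32 with 43, cow 38 with 51), so differences are also given within slides.

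No gene passed the test of B9_B12 against Ctl. With limma's moderated test and Benjamini-Hochberg adjustment over 43653 probes, 0 of 27841 genes (0%) had a probe at an adjusted p of 0.05 or less and a 2-fold difference. No probe had an adjusted p below 0.9999. Cyber-T, the test named in the study's methods, called 5 genes (0.018%) at the same limits, all of them array names without a gene symbol. By the brightest probe, 261 genes (0.937%) were higher and 274 (0.984%) lower at an unadjusted limma p under 0.05. The groups did not overlap for 908 genes on the higher side (3.26%) and 971 on the lower side (3.49%). The median difference over all genes was -0.0019, with the 5th percentile at -0.18 and the 95th at 0.19. For 26802 genes (96.3%) the 95% interval of the difference lay within 2-fold in either direction, and 46 genes differed by 2-fold or more. These values carry an added offset of 50, which compresses the differences of dim probes. Of all genes, 18075 were well above background on all 6 arrays.

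IDO1 and SECTM1 were named by the study for this treatment from these same arrays, so their values and tests describe the choice and are not independent evidence for it. Of 3 genes that the study placed by name under this treatment, the other, LOC509034, was not found here by name. IDO1 was lower in every B9_B12 cow than in any Ctl cow. Its level was 7.75, 7.84 and 7.81 in Ctl cows 42, 43 and 51, and 6.74, 6.76 and 6.9998 in B9_B12 cows 31, 32 and 38. The lowest Ctl value was above the highest B9_B12 value, and each group was tight. The means were 7.80 ± 0.05 (SD, n = 3) for Ctl and 6.83 ± 0.14 (SD, n = 3) for B9_B12, a log2 difference of -0.96 (SE 0.62, 95% interval -2.33 to 0.40), which is 1.95-fold lower. Within slides the difference was -1.003, -1.08 and -0.81. The pooled standard error took in the other mammary groups, which were more variable for this gene: the SD was 0.69 among the B9 arrays and 1.32 among the B12 arrays. The adjusted p was 0.9999 in the limma fit and 0.0047 with Cyber-T, and 3 arrays against 3 cannot go below 0.1 in a two-sided exact permutation test, which gave p = 0.1. IDO1 has a single probe here, well above background on all 6 arrays. The added offset compresses dim probes: the log2 difference was -1.45 with no offset and -1.24 in the authors' processed table.

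SECTM1 was also lower in all B9_B12 cows. Its level was 7.06, 6.94 and 6.89 in Ctl and 6.36, 6.40 and 6.26 in B9_B12, with no overlap. The means were 6.96 ± 0.09 and 6.34 ± 0.07 (SD, n = 3 each), a log2 difference of -0.62 (SE 0.34, 95% interval -1.38 to 0.14) or 1.54-fold, with a limma adjusted p of 0.9999 and a Cyber-T adjusted p of 0.0372. Within slides the log2 difference was -0.70, -0.54 and -0.63. The value came from 1 of 3 probes: the other probes, with log2 differences of 0.04 and -0.03, were not well above background on any of the 6 arrays. The probe is dim, and Agilent's processed signal, which has no offset, gave a log2 difference of -1.80.

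The other genes of the kynurenine pathway lay closer to 0 than IDO1. Of 10 measured members, 1 was higher, where 0.937% of all genes were, and 0 lower at an unadjusted limma p under 0.05, and the median log2 difference was -0.04. The count was 0 on the authors' table, with the processed signal, with 75th percentile scaling, and without Ctl cow 43 or B9_B12 cow 31 or 32. The 1 member was KYAT3, an aminotransferase that makes kynurenic acid, at 7.20, 6.98 and 7.22 in Ctl and 7.47, 7.35 and 7.26 in B9_B12, a difference of 0.22 (SE 0.10). Its other probes gave -0.02 (SE 0.11) and 0.03 (SE 0.05). TDO2, the other enzyme of the first step and mainly a liver gene, had a log2 difference of -0.01 (SE 0.05), and KYNU, which cleaves kynurenine, one of 0.03 (SE 0.06). QPRT, which leads from quinolinic acid to NAD, had a difference of -0.01 (SE 0.16).

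**Figure D1:**
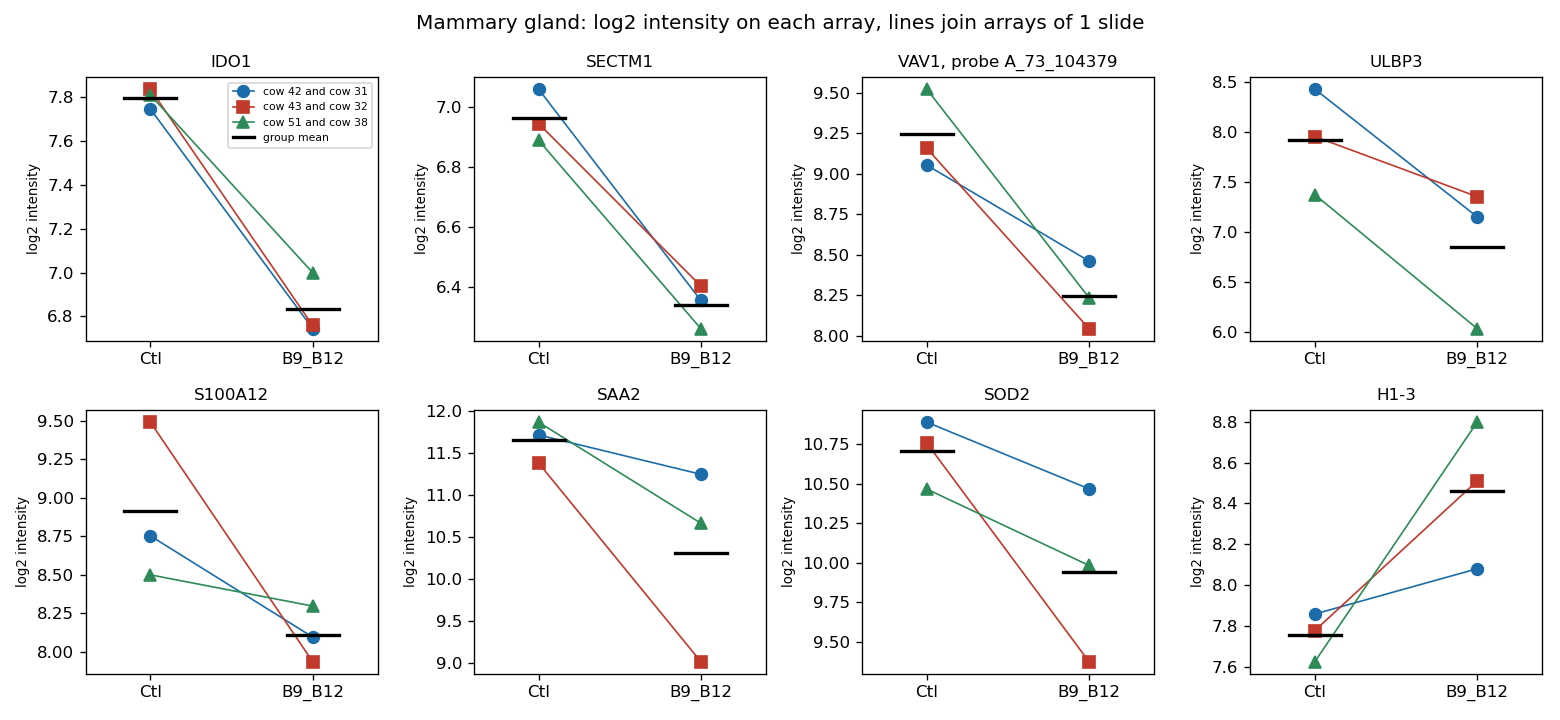
Log2 intensity (vertical axis) of 8 probes in the 3 Ctl and the 3 B9_B12 arrays (horizontal axis), 1 point per cow; thin lines join the 2 arrays of a slide and black bars are group means. IDO1 lay at 7.75 to 7.84 in Ctl and 6.74 to 6.9998 in B9_B12, and SECTM1 at 6.89 to 7.06 and 6.26 to 6.40. The 3 slide pairs ran the same way in the panels of both genes. Those of SAA2 all ran lower too, with its B9_B12 points spread from 9.02 to 11.24.

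ULBP3 and 1 probe of VAV1 had log2 differences close in size to that of IDO1. ULBP3, a ligand of the activating receptor NKG2D on natural killer and T cells, was the only gene with a symbol that met the rule for the largest differences. Its level was 8.43, 7.96 and 7.38 in Ctl and 7.15, 7.36 and 6.04 in B9_B12, so the groups were apart by a narrow margin. The log2 difference was -1.07 (SE 0.47, 95% interval -2.11 to -0.03), or 2.10-fold lower. The probe was well above background on 3 Ctl arrays and 2 B9_B12 arrays. With 1 array left out the difference ran from -1.34 to -0.67, the smallest without B9_B12 cow 38, and over all settings from -2.47 to -0.60. VAV1, a guanine nucleotide exchange factor of antigen receptor signalling that the study listed without a treatment, was split by probe. The probe A_73_104379 read 9.05, 9.16 and 9.52 in Ctl against 8.46, 8.04 and 8.24 in B9_B12, a log2 difference of -0.996 (SE 0.22) with a limma adjusted p of 0.9999 and a Cyber-T adjusted p of 0.0372. The brightest probe of VAV1 gave 0.11 (SE 0.76), with groups that overlapped. The third probe of the gene gave -0.16 (SE 0.06).

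Markers of lymphocytes were closer to 0. Of 28 measured T and natural killer cell genes, 0 were higher and 1 lower at an unadjusted p under 0.05, with a median log2 difference of -0.07. CD8B was that gene, with a difference of -0.13 (SE 0.06) and of -0.04 at its other probe. The share of lower genes over all genes was 0.984%, and the count was 0 with the processed signal, with 75th percentile scaling, and without Ctl cow 42 or 43 or B9_B12 cow 31 or 32. Over the list 21 differences were negative and 7 positive. The list median was -0.10 on the authors' table, -0.14 with the processed signal and -0.18 with 75th percentile scaling, where all genes had -0.16. Of the T cell receptor subunits, CD247 had -0.31 (SE 0.18), CD3E -0.23 (SE 0.29) and CD3G -0.12 (SE 0.15), and CD3D had 0.19 (SE 0.20). CD7, the partner of SECTM1, had a log2 difference of -0.47 (SE 0.38) with overlapping groups, and the interferon-gamma gene IFNG one of 0.02 (SE 0.08). Among 11 B and plasma cell genes none was at an unadjusted limma p under 0.05 and the median was -0.07. JCHAIN, the joining chain of secreted antibodies, had a difference of -0.19 (SE 0.36), and PIGR, which carries these antibodies into milk, one of -0.43 (SE 0.28). Among 22 macrophage genes none was at an unadjusted p under 0.05 either, with C1QA lowest at -0.42 (SE 0.39) and SPP1 highest at 0.28 (SE 0.27).

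Of 20 measured genes induced by interferon-gamma, 17 had a negative log2 difference, the median was -0.22 against -0.0019 over all genes, and 0 were higher and 1 lower at an unadjusted p under 0.05, where 0.984% of all genes were lower. The count of lower genes was 0 without Ctl cow 42 or 43 or B9_B12 cow 32 or 38 and with the processed signal, 2 on the authors' table and with 75th percentile scaling, 3 without Ctl cow 51 and with the slide as a random block, and 5 without B9_B12 cow 31. TAP1, which moves peptides into the endoplasmic reticulum for MHC class I, was that gene, at 7.95, 8.11 and 7.77 in Ctl and 7.81, 7.54 and 7.38 in B9_B12. These groups overlapped by 1 cow, and the difference was -0.36 (SE 0.16), while its other probes gave -0.22 (SE 0.11) and 0.10 (SE 0.27). The guanylate-binding protein gene GBP5 had the lowest value of the list, -0.72 (SE 0.35), the immunoproteasome subunits PSMB10 and PSMB8 had -0.46 (SE 0.23) and -0.36 (SE 0.20), and the MHC class II gene BOLA-DRA had -0.39 (SE 0.27). The list was uneven over the slides: its median was 0.00 for cow 31 minus cow 42, -0.31 for cow 32 minus 43 and -0.24 for cow 38 minus 51. With 1 array left out the list median ran from -0.26 to -0.13, the smallest without B9_B12 cow 32. The type I interferon genes had a median of -0.04 over 21 members, 0 at an unadjusted p under 0.05 in either direction, with ISG15 at -0.46 (SE 0.38), MX1 at 0.02 (SE 0.40) and IRF7 at 0.32 (SE 0.25).

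Genes of neutrophils and the acute phase held the lowest values of the immune lists. Of 29 measured members 24 had a negative log2 difference and the median was -0.14. The median was -0.29 on the authors' table, -0.33 with 75th percentile scaling and -0.79 with the processed signal. At an unadjusted p under 0.05, 0 were higher and 1 lower (0.984% of all genes were lower), and the count of lower genes was 0 without Ctl cow 42 or 43 or B9_B12 cow 32 or 38, 2 without Ctl cow 51, on the authors' table and with the slide as a random block, 3 with the processed signal, 4 with 75th percentile scaling and 5 without B9_B12 cow 31. In 5 genes the groups did not overlap on the lower side, where 3.49% of all genes did not: CXCL8, S100A8, S100A9, S100A12 and SAA2. S100A12, a calcium-binding alarmin of neutrophils, read 8.75, 9.49 and 8.50 in Ctl and 8.10, 7.94 and 8.30 in B9_B12, a log2 difference of -0.80 (SE 0.36), and its other probes gave -0.77 to -0.46. S100A8, which pairs with S100A9 as calprotectin, read 7.24, 7.81 and 6.86 against 6.49, 6.55 and 6.70, a difference of -0.72 (SE 0.42), and S100A9 had one of -0.30 (SE 0.30). CXCL8, the neutrophil chemoattractant, had a small but non-overlapping difference of -0.11 (SE 0.05).

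Larger differences, with larger SEs, were those of SAA2, SAA3, LTF and CHI3L1, none of them at an unadjusted limma p under 0.05. SAA2, an acute phase apolipoprotein gene that the study listed without a treatment, read 11.71, 11.38 and 11.86 in Ctl and 11.24, 9.02 and 10.66 in B9_B12, a log2 difference of -1.34 (SE 0.64), which ran from -1.81 to -0.70 with 1 array left out, the smallest without B9_B12 cow 32. The second SAA2 probe gave -0.33 (SE 0.39). SAA3, the mammary-associated form, had -1.07 (SE 0.64), with cow 31 at 12.27 inside the Ctl range and cow 32 at 10.24. LTF, the iron-binding milk protein lactoferrin, had -1.04 (SE 0.70), with cow 32 at 13.87 against 17.43 and 15.80 in the other B9_B12 cows. CHI3L1, a chitinase-like glycoprotein, had the lowest value of the list, -1.82 (SE 1.00), with cow 32 at 7.08. For each of SAA2, SAA3, LTF and CHI3L1, cow 32 was the lowest of the 6 animals. The list median within slides was -0.04, -0.41 and -0.10, the middle value being that of the pair with cow 32. Of the other members, LAP had -0.60 (SE 0.66), IL1RN -0.40 (SE 0.35), LBP -0.27 (SE 0.31) and HP -0.26 (SE 0.34). The cathelicidin gene CATHL4 had -0.00 (SE 0.49). TLR2 at 0.10 (SE 0.27) and TLR4 at 0.03 (SE 0.21) were among the 5 members with a positive difference.

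**Figure D2:**
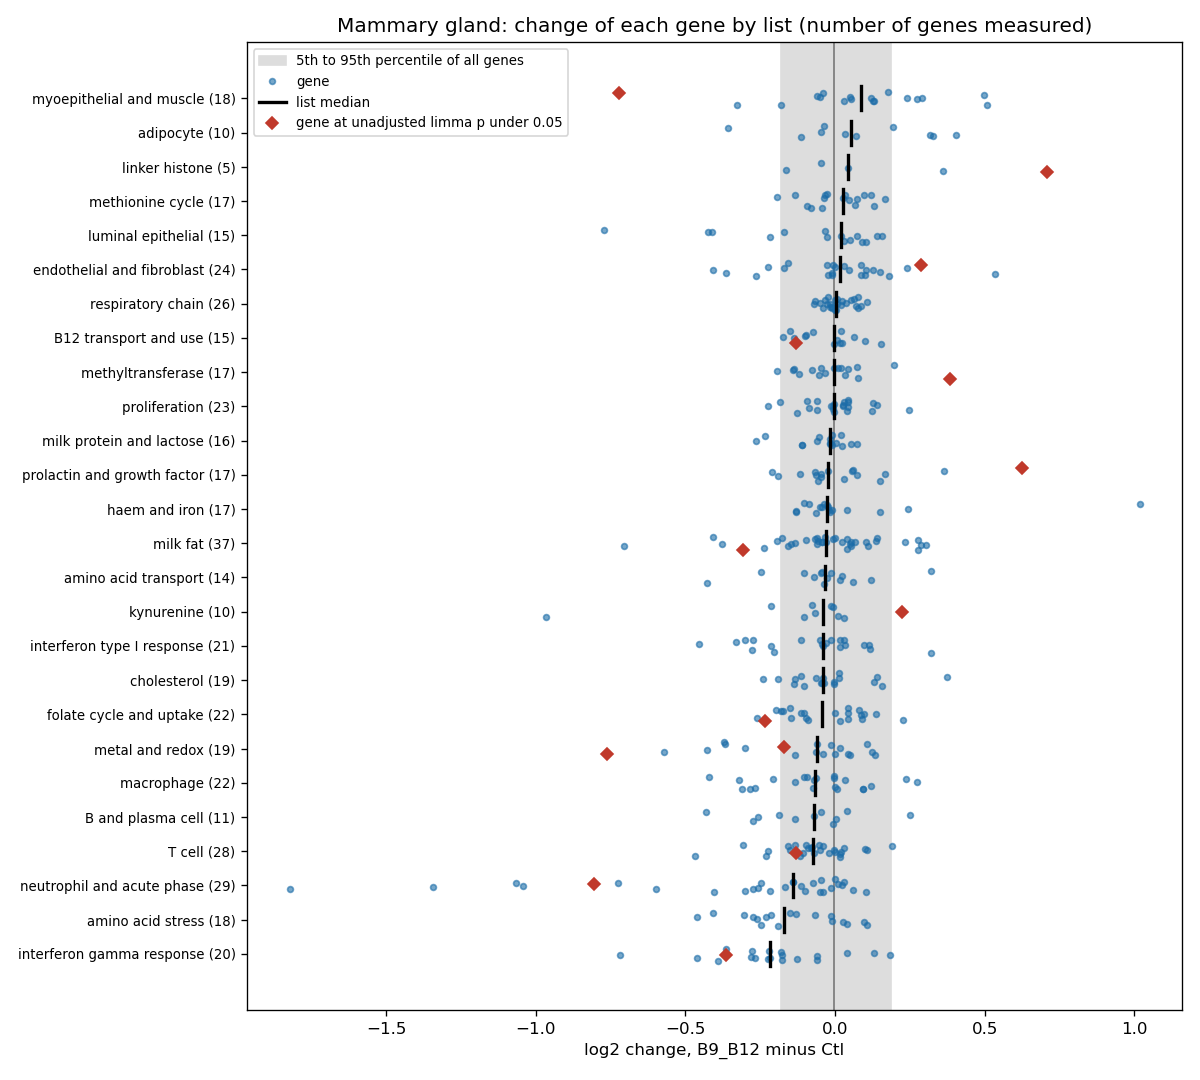
Log2 difference, B9_B12 minus Ctl, of each gene (points) by gene list, with the median of each list; red diamonds are genes at an unadjusted limma p under 0.05 and the grey band spans the 5th to 95th percentile of all 27841 genes, -0.18 to 0.19. The medians ran from -0.22 for interferon-gamma response genes to 0.09 for myoepithelial and muscle genes, and most lists were centred near 0.

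**Figure D3:**
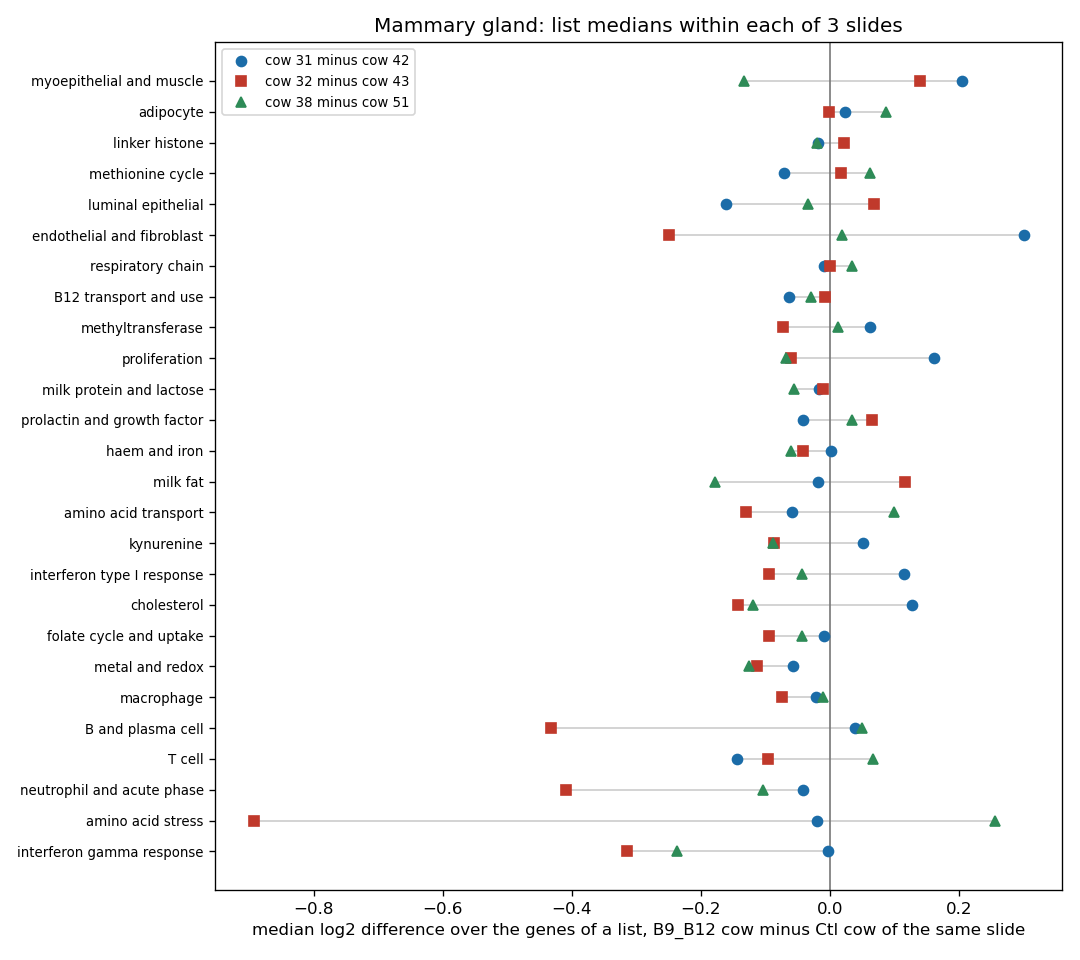
Median log2 difference of each gene list within the 3 slides that held 1 B9_B12 and 1 Ctl array, by cow pair. The pair of cows 32 and 43 gave the lowest medians for amino acid stress (-0.89), B and plasma cell (-0.43), neutrophil and acute phase (-0.41) and interferon-gamma response genes (-0.31).

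The genes that use the injected vitamins had differences near 0. Of 22 measured genes of folate uptake and the folate cycle, 0 were higher and 1 lower (0.984% over all genes) at an unadjusted p under 0.05, 11 differences were positive and 11 negative, and the median was -0.04. The count of lower genes was 0 on the authors' table, with the processed signal, with 75th percentile scaling, and without Ctl cow 42 or 43 or B9_B12 cow 31, and 2 without B9_B12 cow 32. ATIC, which completes purine synthesis with a folate-borne carbon, was the lower one, at 11.57, 11.40 and 11.18 in Ctl and 11.10, 11.21 and 11.14 in B9_B12. The Ctl cows spread more than the B9_B12 cows, the groups overlapped, and the difference was -0.23 (SE 0.10). MTHFD1L and PAICS were the members whose groups did not overlap (3.49% of all genes on this side), both lower, at -0.15 (SE 0.10) and -0.11 (SE 0.11). The reduced folate carrier SLC19A1 had -0.09 (SE 0.07), the proton-coupled carrier SLC46A1 0.09 (SE 0.26), and FPGS, which retains folate in cells, 0.00 (SE 0.20). For 21 of the 22 genes, as for 96.3% of all genes, the 95% interval lay within 2-fold, the exception being ALDH1L1 at -1.02 to 0.66.

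The methionine cycle and the B12 genes also lay near 0. None of 17 methionine cycle genes was at an unadjusted p under 0.05, none had groups apart, the median was 0.03 and all 17 intervals lay within 2-fold. Of the 17 genes, 14 were well above background on all 6 arrays, and the added offset compresses the differences of dim probes. MTR, methionine synthase itself, read 6.55, 6.78 and 6.62 in Ctl and 6.53, 6.70 and 6.64 in B9_B12, a log2 difference of -0.03 (SE 0.07, 95% interval -0.19 to 0.13). Its reductase MTRR had 0.03 (SE 0.11), the S-adenosylmethionine synthetase MAT2A 0.07 (SE 0.25), and CBS, which draws homocysteine into transsulfuration, -0.20 (SE 0.20). Of 15 B12 transport and processing genes, 1 was lower at an unadjusted p under 0.05, AMN, a subunit of the intestinal B12 receptor, at -0.13 (SE 0.06) on a dim probe and 0.03 at its other probe. The share over all genes was 0.984%, and the count was 0 with 75th percentile scaling and without Ctl cow 42 or 43 or B9_B12 cow 31 or 38. The plasma carrier TCN2 had 0.15 (SE 0.29), its cell receptor CD320 -0.07 (SE 0.28), and MMUT, the mitochondrial B12 enzyme, 0.01 (SE 0.10, 95% interval -0.22 to 0.23). MMAB and TCN1 were lower without overlap (3.49% of all genes), at -0.17 (SE 0.15) and -0.10 (SE 0.13), and all 15 intervals lay within 2-fold. Of these 15 genes, 13 were well above background on all 6 arrays, so the same limit of the offset holds.

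**Figure D4:**
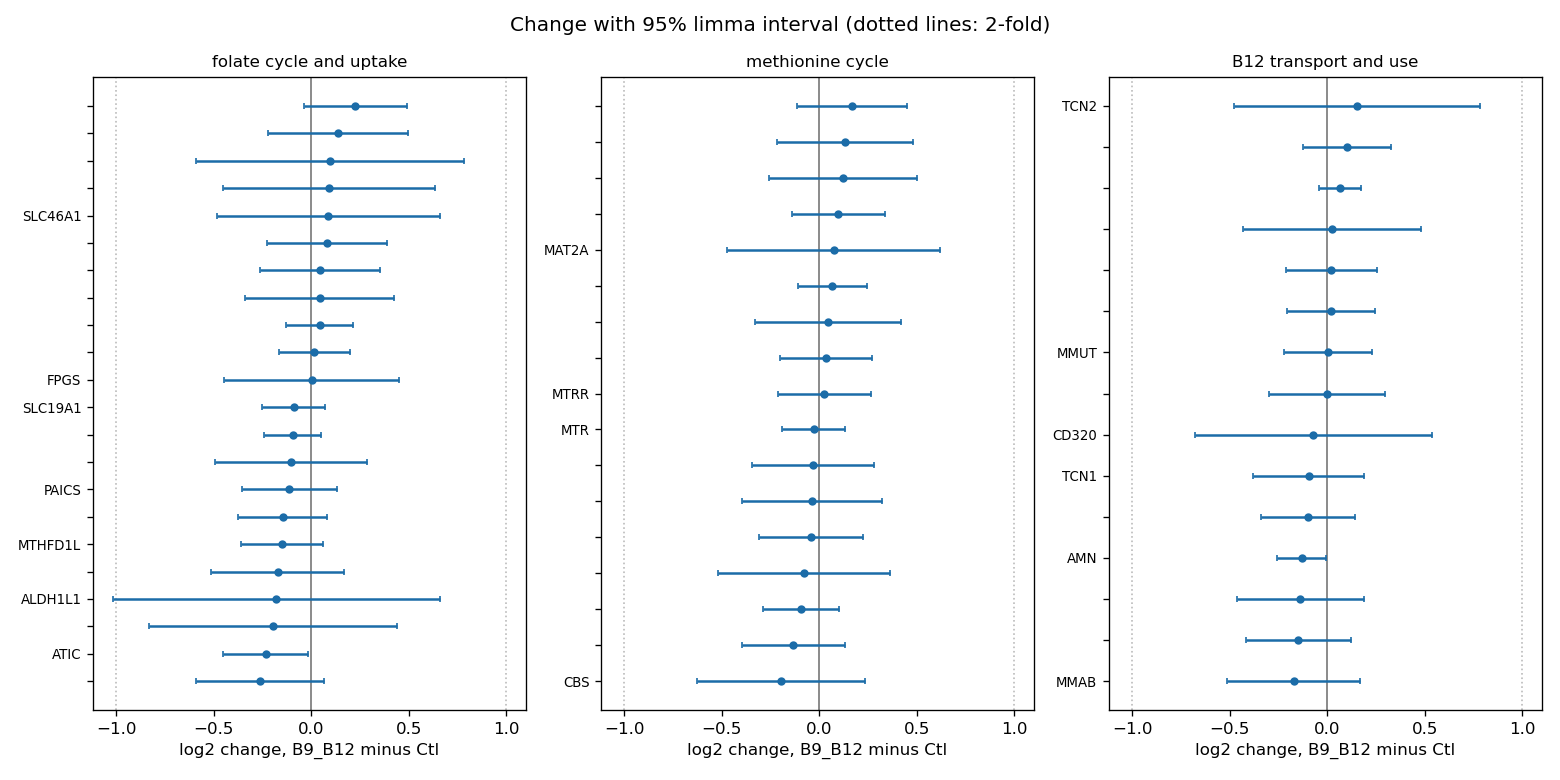
Log2 difference, B9_B12 minus Ctl, with its 95% interval from the limma fit for each gene of the folate, methionine cycle and B12 lists; dotted lines mark 2-fold. Genes are ordered by their difference and those described in the text carry their names. Of the 54 intervals only that of ALDH1L1 reached past 2-fold. The values carry the added offset, which compresses the differences of dim probes.

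Among genes that spend methyl groups, KMT5A was the 1 of 17 methyltransferase genes higher at an unadjusted p under 0.05 (0.937% of all genes) and the 1 higher without overlap (3.26%), with a list median of -0.003. KMT5A, which monomethylates histone H4 at lysine 20, read 10.25, 10.44 and 10.67 in Ctl and 10.74, 10.90 and 10.87 in B9_B12, a log2 difference of 0.38 (SE 0.11), and its second probe gave 0.35 (SE 0.13). The groups were apart, with cow 51 close to cow 31. The list held 2 higher genes without Ctl cow 43, and 1 higher and 1 lower without Ctl cow 42. The DNA methyltransferase DNMT1 had 0.08 (SE 0.19) and its partner UHRF1 0.20 (SE 0.11). The linker histone gene H1-3 had the largest positive difference of any listed gene at an unadjusted p under 0.05. It read 7.86, 7.78 and 7.63 in Ctl and 8.08, 8.51 and 8.80 in B9_B12, a log2 difference of 0.71 (SE 0.20), and its 3 probes gave 0.37 to 0.71, each without overlap. The means of cows given a single vitamin lay between these groups, 8.40 ± 0.26 (SD, n = 3) for B9 and 8.13 ± 0.27 (SD, n = 4) for B12. Of the other measured linker histones H1-2 had 0.36 (SE 0.31). H1 genes are similar in sequence, and a probe may read more than 1 of them.

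The milk protein genes CSN1S1, CSN1S2, CSN3, LALBA, PAEP (beta-lactoglobulin) and GLYCAM1 had log2 differences of -0.06 to 0.02, with SEs of 0.03 to 0.04. They are among the brightest probes, to which quantile normalization gives nearly the same value on every array. With each array scaled to its 75th percentile in place of quantiles, these differences were 0.11 to 0.16, while the median over all genes moved to -0.16. In the whole list of 16 milk protein and lactose genes, 0 were at an unadjusted p under 0.05 and the median was -0.02. SLC2A8, a glucose transporter, was lower without overlap (3.49% of all genes) at -0.26 (SE 0.14), and SLC2A1, which imports the glucose for lactose, had 0.02 (SE 0.17).

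Of 37 milk fat genes, 0 were higher and 1 lower (0.984% of all genes) at an unadjusted p under 0.05, with a median of -0.03. None was lower with the processed signal or without Ctl cow 43 or B9_B12 cow 31, 2 were with the slide as a random block, 3 were without cow 32, and without cow 38 there were 3 higher and 0 lower. ACSL1, which activates long-chain fatty acids, was lower at 13.77, 13.87 and 13.89 in Ctl and 13.37, 13.73 and 13.50 in B9_B12, a difference of -0.31 (SE 0.13), and its 5 other probes gave -0.29 to -0.19. PPARG, a lipogenic nuclear receptor, was higher without overlap (3.26% of all genes), at 9.37, 9.67 and 9.38 against 9.84, 9.72 and 9.70, a difference of 0.28 (SE 0.20). The desaturase SCD had -0.06 (SE 0.12), the acetyl-CoA carboxylase ACACA -0.13 (SE 0.25), and the fatty acid transporter SLC27A6 the lowest value, -0.70 (SE 0.36). The respiratory chain list was the most even: its 26 genes lay between -0.07 (UQCRB) and 0.11 (SDHA), with a median of 0.002. Cholesterol synthesis genes, 19 in number, had a median of -0.04 and none at an unadjusted p under 0.05, and 14 amino acid transporters had a median of -0.03 and none.

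The amino acid stress genes depended on the cow pair. Their median over 18 genes was -0.17, with 0 at an unadjusted p under 0.05. The median was -0.02 for cow 31 minus 42, -0.89 for cow 32 minus 43 and 0.26 for cow 38 minus 51, so the pairs did not share a direction. ASNS, asparagine synthetase, read 9.72, 10.56 and 10.21 in Ctl and 9.79, 9.36 and 10.89 in B9_B12, with cow 32 the lowest and cow 38 the highest of the 6. CHAC1, which breaks down glutathione under amino acid shortage, had the same order at both ends, with cow 32 at 6.70 and cow 38 at 8.42. The list median was 0.04 without cow 32 and -0.31 without cow 38. Without cow 38 there were 4 lower genes at an unadjusted p under 0.05, where 306 of all 27841 genes were lower.

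Redox and growth factor genes held further members with differences in both probes. SOD2, the mitochondrial superoxide dismutase, read 10.89, 10.76 and 10.47 in Ctl and 10.47, 9.38 and 9.98 in B9_B12, a log2 difference of -0.76 (SE 0.27). The groups met at 10.47. The second SOD2 probe gave -0.67 (SE 0.18) with the groups apart. In its list of 19 metal and redox genes, 2 were lower (0.984% of all genes) and 0 higher at an unadjusted p under 0.05, the other being GCLM, the modifier subunit of the enzyme that starts glutathione synthesis, at -0.17 (SE 0.08). GPX1 and MT2A were lower without overlap (3.49% of all genes), both at -0.37 (SE 0.22 and 0.19), and the list median was -0.06. The count of lower genes was 0 without B9_B12 cow 32, and 1 on the authors' table, with the processed signal and without Ctl cow 43 or 51. It was 3 without B9_B12 cow 31 and with the slide as a random block. IGFBP5, a binding protein that restrains insulin-like growth factor I in the gland, read 8.76, 8.59 and 8.83 in Ctl and 9.71, 9.21 and 9.14 in B9_B12, a difference of 0.63 (SE 0.24), and its other probe gave 0.52 (SE 0.18). Of 17 prolactin and growth factor genes it was the 1 higher at an unadjusted p under 0.05 (0.937% of all genes), with 0 lower and a list median of -0.02. The count was 0 without Ctl cow 43 and 2 without B9_B12 cow 38. The prolactin receptor PRLR had 0.03 (SE 0.19) and STAT5A -0.07 (SE 0.20). Transferrin (TF) had the largest positive value among 17 haem and iron genes, 1.02 (SE 0.94), with overlapping groups.

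Markers of the other cells of a biopsy are given as lists, and their part in the differences above was not tested. Among 18 myoepithelial and muscle genes, 1 was lower, DES (desmin), at 9.97, 9.65 and 10.02 in Ctl and 9.08, 8.67 and 9.73 in B9_B12, a difference of -0.72 (SE 0.30), while its 3 other probes gave -0.57 to 0.13. The share of lower genes over all genes was 0.984%, and the count was 0 without Ctl cow 42 or 51 or B9_B12 cow 31 or 32. The mean level of this list was 9.60 to 9.97 over the Ctl cows and 9.76 to 10.00 over the B9_B12 cows. Over the list 12 differences were positive and 6 negative, with a median of 0.09. Of the myoepithelial genes, KRT14 was lower without overlap (3.49% of all genes) at -0.33 (SE 0.30), and CNN1 was higher without overlap (3.26%) at 0.50 (SE 0.37). TAGLN had 0.51 (SE 0.28), ACTA2 0.29 (SE 0.38), MYLK 0.27 (SE 0.27), KRT17 0.24 (SE 0.34) and KRT5 0.13 (SE 0.35). Among 24 endothelial and fibroblast genes, 1 was higher, the endothelial cadherin CDH5, at 6.90, 7.20 and 6.97 in Ctl and 7.57, 7.30 and 7.06 in B9_B12, a difference of 0.29 (SE 0.13) with 0.07 and 0.12 at its other probes, while COL1A1 had -0.26 (SE 0.42). The share of higher genes over all genes was 0.937%, and the count was 2 on the authors' table and 0 with the processed signal, with 75th percentile scaling, and without Ctl cow 42 or 51 or B9_B12 cow 32. The mean level of this list was 9.15 to 9.32 in Ctl and 8.97 to 9.55 in B9_B12.

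Of 10 adipocyte genes, FABP4 and PNPLA2 were higher without overlap (3.26% of all genes), at 0.32 (SE 0.23) and 0.41 (SE 0.22), and CIDEC and PLIN1 lower without overlap (3.49%), at -0.36 (SE 0.35) and -0.05 (SE 0.05). Their mean level was 8.06 to 8.17 in Ctl and 8.16 to 8.24 in B9_B12. The luminal list had a median of 0.02 and mean levels of 10.51 to 10.69 in Ctl and 10.43 to 10.58 in B9_B12, with the keratin KRT18 lowest at -0.77 (SE 0.64). The neutrophil list had mean levels of 7.89 to 8.13 in Ctl and 7.39 to 7.92 in B9_B12, the T cell list 7.59 to 7.93 and 7.45 to 7.81, the B and plasma cell list 7.99 to 8.35 and 7.92 to 8.20, and the macrophage list 9.42 to 9.57 and 9.32 to 9.52. Of the 23 proliferation genes none was at an unadjusted p under 0.05, and the median was -0.003. Leaving out 1 array gave at most 2 genes at such a p in each of the remaining lists that had none.

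The arrays of single vitamins show where the combined treatment stood. Against B12 alone, 2033 of 43653 probes (4.66%) were at an unadjusted limma p under 0.05, against B9 alone 1016 (2.33%), and against Ctl 852 (1.95%). The interaction, the combined difference minus the sum of both single differences, had 1381 such probes (3.16%). Each of these shares was below the 0.05 that such a p marks on average where nothing differs. The adjusted p was 0.995 or higher for every probe in the comparison with B12, and no gene was called against B9 or for the interaction. Differences of B9 and B12 from Ctl use the same 3 Ctl arrays as the combined treatment and are set beside it as values.

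IDO1 varied most in the cows given B12 alone. Its level was 7.69, 7.76 and 6.53 in the B9 cows and 9.26, 7.78, 7.80 and 10.52 in the B12 cows. All 3 B9_B12 cows were below all 4 B12 cows, and 1 B9 cow was below them all. The log2 difference from B12 was -2.01 (SE 0.58), with a limma adjusted p of 0.995, and from B9 -0.49 (SE 0.62). The interaction was -1.53 (SE 0.85, 95% interval -3.40 to 0.34). SECTM1 read 7.47, 6.88 and 6.75 in B9 and 7.95, 6.56, 7.08 and 6.31 in B12, so 1 B12 cow was within the combined range. Its log2 difference was 0.07 (SE 0.34) for B9 and 0.01 (SE 0.32) for B12 against Ctl, and its interaction was -0.70 (SE 0.47, 95% interval -1.74 to 0.34).

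Other members differed in how far single vitamins matched the combination. S100A12 had log2 differences from Ctl of -0.31 (SE 0.36) with B9 and 0.38 (SE 0.34) with B12, against -0.80 combined. SAA2 had -0.47 (SE 0.64) with B9 and -1.42 (SE 0.60) with B12, against -1.34 combined. ULBP3 had -1.30 (SE 0.47) and -0.72 (SE 0.44), against -1.07. The VAV1 probe A_73_104379 read 8.17 ± 0.19 (SD, n = 3) in B9 and 8.54 ± 0.39 (SD, n = 4) in B12, both below the Ctl mean of 9.24. KMT5A had 0.04 (SE 0.11) with B9 and -0.01 (SE 0.10) with B12, against 0.38 combined, with an interaction of 0.35 (SE 0.14). GCLM was on the other side of Ctl with each vitamin alone, 0.25 (SE 0.08) and 0.13 (SE 0.07), and its interaction was -0.55 (SE 0.10, 95% interval -0.78 to -0.33) with a limma adjusted p of 0.9998. IGFBP5 had 0.38 (SE 0.24) with B9 and 0.62 (SE 0.23) with B12, against 0.63 combined.

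Other mammary genes that the study named are given by value, since they were chosen on these arrays. The study's quantitative PCR bore out POSTN with B9 and RAB15 with B12, and not most of the mammary genes it measured that way. POSTN, the matrix protein periostin, read 7.09, 7.29 and 7.001 in Ctl and 7.29, 7.74 and 7.96 in B9_B12, a log2 difference of 0.54 (SE 0.27), against 1.27 with B9 and 0.83 with B12. RAB15, a small GTPase of endosome recycling, had 1.44 (SE 0.66) combined, 0.72 with B9 and 1.98 with B12. Its Ctl cows spread from 8.32 to 10.37 and cow 31, at 10.21, was within that range. FUT6, a fucosyltransferase that the study called FUT5 and the RefSeq table FUT6, had 1.76 (SE 1.01), with Ctl cow 42 at 9.07 above cow 38 at 6.63 and the other Ctl cows at 6.16 and 6.0002. Its probe was well above background on 2 of 3 Ctl arrays, and the difference ran from 0.88 without B9_B12 cow 31 to 2.86 without B9_B12 cow 38 with 1 array left out, with a value near the upper end without Ctl cow 42 as well. Over all settings it ran from 0.63 to 3.68. CIDEA, a lipid droplet protein of milk fat secretion, had -0.24 (SE 0.46) by its brightest probe and 0.16 by the probe farthest from it. The adhesion receptor ADGRF1 had 0.30 (SE 0.31), the homeobox gene IRX6 0.22 (SE 0.47) and CCDC196, which the study listed without a treatment, 0.63 (SE 0.42), the last carried by cow 38 alone, at 7.78 against 5.87 to 6.02 in the other 5 animals.

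**Figure D5:**
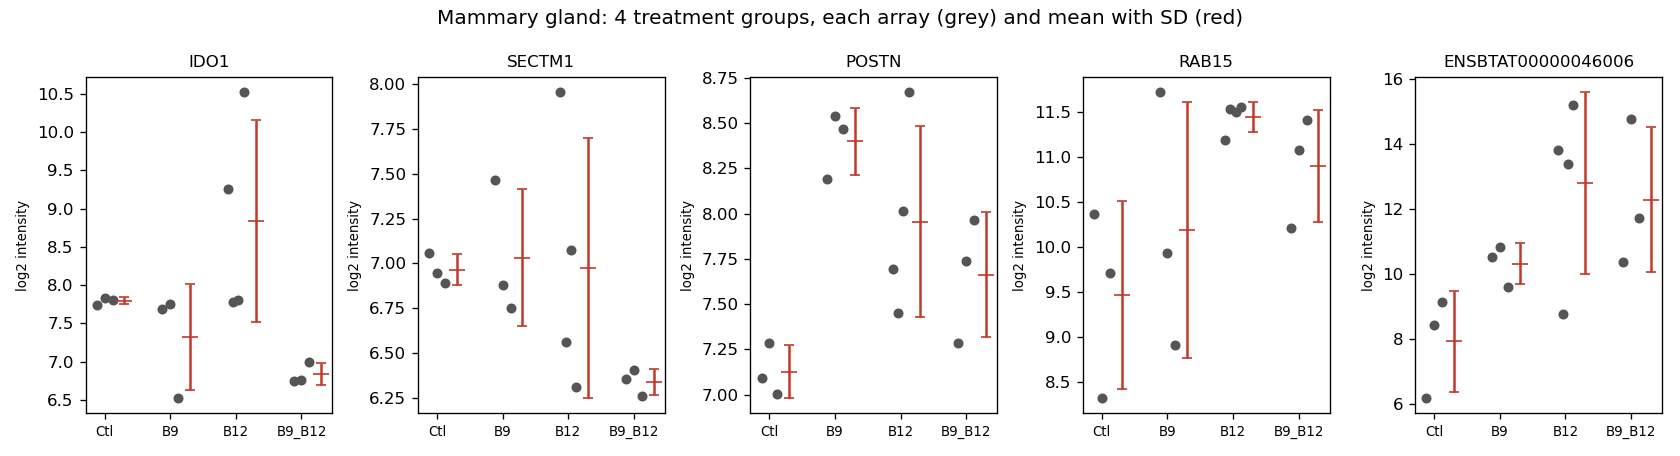
Log2 intensity of IDO1, SECTM1, POSTN, RAB15 and the array name ENSBTAT00000046006 in the Ctl, B9, B12 and B9_B12 groups; grey points are single cows and red marks the mean ± SD (n = 3, 3, 4 and 3). IDO1 spread from 7.78 to 10.52 in B12 and lay at 6.74 to 6.9998 in B9_B12, and ENSBTAT00000046006 was lowest in Ctl, at 6.19 to 9.15.

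The largest differences belonged to probes without a gene symbol. At 2-fold or more and an unadjusted limma p under 0.05 there were 2 genes on the higher side and 10 on the lower side, and 10 of these 12 had no symbol. The 4 described here were chosen after their values were seen. ENSBTAT00000046006 read 6.19, 8.44 and 9.15 in Ctl and 10.38, 14.76 and 11.73 in B9_B12, a log2 difference of 4.36 (SE 1.55), with 4.03 at its second probe and a Cyber-T adjusted p of 0.0157. It was as high with B12 alone, 12.79 ± 2.79 (SD, n = 4), and its SD was 1.55 in Ctl, 0.63 in B9 and 2.24 in B9_B12. ENSBTAT00000028577 had a difference of 1.04 (SE 0.32). NM_001076983 read 9.59, 8.99 and 8.86 in Ctl and 7.65, 7.04 and 7.47 in B9_B12, a difference of -1.76 (SE 0.54) with a Cyber-T adjusted p of 0.00013, while its 3 other probes, well above background on all Ctl arrays and on at most 1 B9_B12 array, gave -0.53 to -0.06. XM_590917 read 8.80, 9.44 and 9.71 against 7.11, 8.004 and 8.12, a difference of -1.57 (SE 0.43) with a Cyber-T adjusted p of 0.0047, and -1.70, -1.44 and -1.59 within slides. Both of the lower ones were also below Ctl with each vitamin alone, NM_001076983 by -1.64 with B9 and -1.21 with B12, and XM_590917 by -1.06 and -1.04.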

How the data were processed

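RNA of mammary biopsies was labelled with 1 dye and hybridised to Agilent bovine oligonucleotide arrays, 1 cow per array. Per the file headers, the deposited spot intensities came from Feature Extraction 10.7.3.1 on an array designed on HGSC Btau_3.1. The authors also deposited a table of log2 values, corrected with normexp and normalized between arrays, which matched normexp with an offset of 16 and quantiles to a median difference of 0.00095.

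Median spot intensities were corrected here with normexp (offset 50) over the median background, quantile normalized over the 13 mammary arrays and averaged by probe, with outlier spots left out, using limma 3.58.1 in R 4.3.3. Of 43653 probes, 53.9% carried a gene symbol, and the array's RefSeq names were updated through a RefSeq table. The limma model had 4 groups and no covariate, so all 13 arrays shared 1 estimate of the spread, and p-values were adjusted with Benjamini-Hochberg. A gene was called at an adjusted p of 0.05 or less with a 2-fold difference in any probe. Cyber-T (window 101, confidence 10), the methods' test, was an alternative. The test steps were checked on simulated data.

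Named genes were those the study named and found here by name, IDO1 and SECTM1, the 10 largest rises and falls with a symbol that were 2-fold, at an unadjusted p under 0.05, without overlap and above background, and listed genes at an unadjusted p under 0.05 or brightest in a vitamin, kynurenine or milk list. For other genes of a list, those described were chosen after their values were seen. The members and the 26 gene lists (488 of 625 genes found) were chosen with earlier results of these data known. Their counts have no test of their own. The number of cows limits the precision, and the median SE of a log2 difference was 0.0957 over probes. Alternatives changed background, offset, scaling, filter, slide, weights and arrays. The within-slide differences, and the 75th percentile scaling of the lists, were added after seeing the data. Columns of other measurements, quantitative PCR and liver were not used here. Some genes of the lists count towards the totals but are not reported here by name.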

Additional observations from a re-analysis of the deposited data

Results flagged for a closer look

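Among 31 groups of 4 arrays examined for a sample far from the others, 2 were found, both among the 4 arrays of B12 alone; chance marks about 5% of such groups. For RAB15, cow 36 read 11.19 in log2 intensity, below the 11.50 to 11.55 of the other B12 cows. For ADGRF1, cow 40 read 9.45, below the 9.85 to 9.86 of the others. Neither array is part of the comparison of B9_B12 with Ctl.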

How the results depend on the processing

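The count of genes called was 0 in limma under every background, offset, scaling, filter, slide and array-weight alternative, 5 with Cyber-T, 8 with Cyber-T on the authors' table, and 0 to 1 when 1 array was left out; the 1 was an unnamed transcript without Ctl cow 43. IDO1 and the VAV1 probe A_73_104379 were among the 8. No gene was called against B12, against B9 or for the interaction. For these comparisons the only alternatives run were limma on the authors' table and the slide as a random block. Probes at an unadjusted p under 0.05, 852 as reported, numbered 552 with 75th percentile scaling, 561 after the filter on dim probes, 1429 with the slide as a fixed block, 1338 as a random block, 1535 with Cyber-T, 1515 with Cyber-T on the authors' table, 1643 with array weights, and 729 to 1334 with 1 array left out, the most without B9_B12 cow 31. Of these probes 50.7% were higher as reported and 26.4% with 75th percentile scaling, which moved the median of all genes to -0.16. The cause of these shifts was not tested.

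Of the single-gene log2 differences, 717 kept their direction and side of the threshold, 12 passed it and 14 changed sign. IDO1 stayed at -1.63 to -0.81 and SECTM1 at -1.80 to -0.21. The sign turned within 1 slide for RAB15 (-0.16), ADGRF1 (-0.63), IRX6 (-0.31), GCLM (0.018), CCDC196 (-0.059), VAV1 (-0.43), CIDEA (1.01) and CD8B (0.036), and for VAV1 with the mean of its probes (-0.35). With 1 array left out, IRX6 ran from -0.010 to 0.55, the brightest VAV1 probe from -0.47 to 0.56 and CIDEA from -0.63 to 0.080. ADGRF1 then ran from 0.080 to 0.55 and ATIC from -0.33 to -0.14. Without Ctl cow 43 RAB15 had 0.87 and S100A12 -0.52, without B9_B12 cow 32 SOD2 had -0.48 and DES -0.48, without B9_B12 cow 31 CDH5 had 0.16, and without B9_B12 cow 38 CCDC196 had 0.03. Of the list counts and medians, 653 stayed close and 127 moved. No paired analysis was possible because the compared groups share no cow number, apart from the blocks by slide given above, which pair the arrays by slide and not by animal.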
